A study of Homo sapiens with 4 samples.

Results

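The LIN28, IGF2BP and HMGA oncofetal genes are 10 genes that are active in the embryo, silent or low in most adult tissues and switched on again in many tumours, together with genes tied to them by the let-7 microRNAs. They were chosen by symbol: LIN28A, LIN28B, IGF2BP1, IGF2BP2, IGF2BP3, HMGA1, HMGA2, TRIM71, DIS3L2 and ARID3B. Each matched 1 row of the 64252 rows in the table, so all 10 are accounted for. RNA of SK-N-BE(2) cells was sequenced, a human neuroblastoma line in which MYCN is amplified. All cells carried a short hairpin RNA: 2 libraries came from cells with a control hairpin (shControl) and 2 from cells with a hairpin against CDK5RAP3 (shCDK5RAP3), whose product works with the ligase of the small modifier UFM1. The labels give no time after transfection, no number of hairpins and no statement that replicates were separate cultures, so the p-values speak only of the spread among these 4 libraries, which may be technical.

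LIN28A and LIN28B are RNA-binding proteins that block the maturation of let-7, a family of microRNAs that rises as cells differentiate. LIN28A recruits enzymes that add uridines to the let-7 precursor, and the exonuclease DIS3L2 degrades the tailed precursor. Mature let-7 in turn represses LIN28, the IGF2BP and HMGA genes, TRIM71 and ARID3B, so the family and its targets form a loop. In neuroblastoma LIN28B is known for raising MYCN protein by lowering let-7, and ARID3B for cooperating with MYCN.

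The let-7 family shares 1 seed, the bases at positions 2 to 8 from the 5′ end that pair with a target. These are the mature RefSeq sequences (GRCh38.p14) of all 9 members found, with the seed in capitals, shown because the target sites of the oncofetal genes are the reverse complement of that seed.
let-7a-5p: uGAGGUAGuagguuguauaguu
let-7b-5p: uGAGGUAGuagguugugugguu
let-7c-5p: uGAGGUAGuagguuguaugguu
let-7d-5p: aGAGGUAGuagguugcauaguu
let-7e-5p: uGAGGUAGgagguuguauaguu
let-7f-5p: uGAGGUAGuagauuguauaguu
let-7g-5p: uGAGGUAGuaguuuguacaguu
let-7i-5p: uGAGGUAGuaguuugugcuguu
miR-98-5p: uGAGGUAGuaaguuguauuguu

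The matching 7-base word, CTACCTC on the sense strand, was looked for in every annotated 3′ UTR of protein-coding transcripts (GENCODE 29, GRCh38). TRIM71 held 6 matches, LIN28B, IGF2BP1 and HMGA2 4 each, LIN28A, IGF2BP2, IGF2BP3, HMGA1 and ARID3B 1 each, and DIS3L2 0. Of 13564 tested genes with such a UTR 12.1% held at least 1 match, and 11 genes (0.0811%) held 4 or more. In HMGA2 the longest 3′ UTR held 0 of the 4 matches, which lie in shorter transcripts. One 30-base window is shown for each of the 5 tested genes that hold a match, with the match in capitals, and for HMGA2 as the textbook let-7 target. A match is a description of the letters, not a measured site.
TRIM71, chr3:32892043-32892072, plus strand: tgtgaagtgataatttctatCTACCTCata
LIN28B, chr6:105078807-105078836, plus strand: cctttacccggttgcaaagtCTACCTCatg
IGF2BP3, chr7:23311793-23311822, minus strand: aaacgtgcatttttactcaaCTACCTCagg
HMGA1, chr6:34245824-34245853, plus strand: atttttcctctgttcacaaaCTACCTCtgg
ARID3B, chr15:74598096-74598125, plus strand: gtttatatttcaataaacctCTACCTCttc
HMGA2, chr12:65963293-65963322, plus strand: ggggcgccaacgttcgatttCTACCTCagc

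Depth was close across libraries, with 28653689 to 30138393 counts each, and CDK5RAP3 itself was at 62.1% of its control level (edgeR adjusted p = 0.000163). Libraries of 1 group differed by a chi-square of 6.77 to 8.65 per degree of freedom, against 77.4 to 88.0 between groups. All 8 neuroblastoma markers checked were expressed, and 7 of them fell with the hairpin, where 21.8% of all tested genes fell. Their summed level was 6860 to 7320 CPM (counts scaled to a common library size) under the control hairpin against 4080 to 4190 under the other. Most of that sum was MYCN, which fell from 4800 to 2850 CPM (log2 change -0.75, edgeR adjusted p = 6.74e-06). Of the markers of leukocytes, endothelium and epithelium 3 of 9 tested fell and 0 rose. The 3 falls were lost without the low-count filter. Their summed level was 12.4 to 13.6 CPM under the control hairpin against 8.01 to 8.02 over all markers of this list. EPCAM was at 4.35 CPM under the control hairpin, and CD3E had 0 counts in every library. Of the Schwann cell markers 2 of 3 tested fell (summed level 32.8 to 33.9 against 17.1 to 17.4 CPM). PMP22 was at 29.8 CPM under the control hairpin, and SOX10 was at 0. Of 9 fibroblast markers 5 of 8 tested fell and 1, THY1, rose (summed level 816 to 834 against 530 to 540 CPM). Several were well expressed under the control hairpin, with THY1 at 247, PDGFRB at 215 and LUM at 175 CPM, while FAP was at 0. The 1 rise was lost without the low-count filter, without shControl replicate 1 and without either shCDK5RAP3 replicate. The part of these markers in the results below was not tested.

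Of the 10 genes 6 were expressed at a level that could be tested: LIN28B, IGF2BP3, HMGA1, TRIM71, DIS3L2 and ARID3B. By level per length (CPM divided by the exon length in kilobases, RPKM) the order in the shControl libraries was HMGA1 with a mean of 179, IGF2BP3 with 13.5, LIN28B with 8.40, ARID3B with 3.45, DIS3L2 with 2.95 and TRIM71 with 1.06. Neighbours in that order did not overlap between the 2 shControl libraries. The closest pair was ARID3B, at 3.43 and 3.46 RPKM, and DIS3L2, at 2.97 and 2.93. The order was the same in the shCDK5RAP3 libraries, where the means were 145, 16.7, 7.22, 4.91, 2.58 and 2.10 RPKM.

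The other 4 genes, LIN28A, IGF2BP1, IGF2BP2 and HMGA2, had at most 13 counts in any library and did not pass the filter on low counts. Their levels cannot be ranked against each other at this depth, where a count of 0 allows up to 3 counts, or 0.101 to 0.105 CPM. So each oncofetal family was represented here almost wholly by 1 transcript. LIN28B made up 99.3% to 100% of the LIN28 level per length in the 4 libraries, IGF2BP3 99.2% to 99.9% of the IGF2BP level and HMGA1 100% of the HMGA level, rounded.

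**Figure D1:**
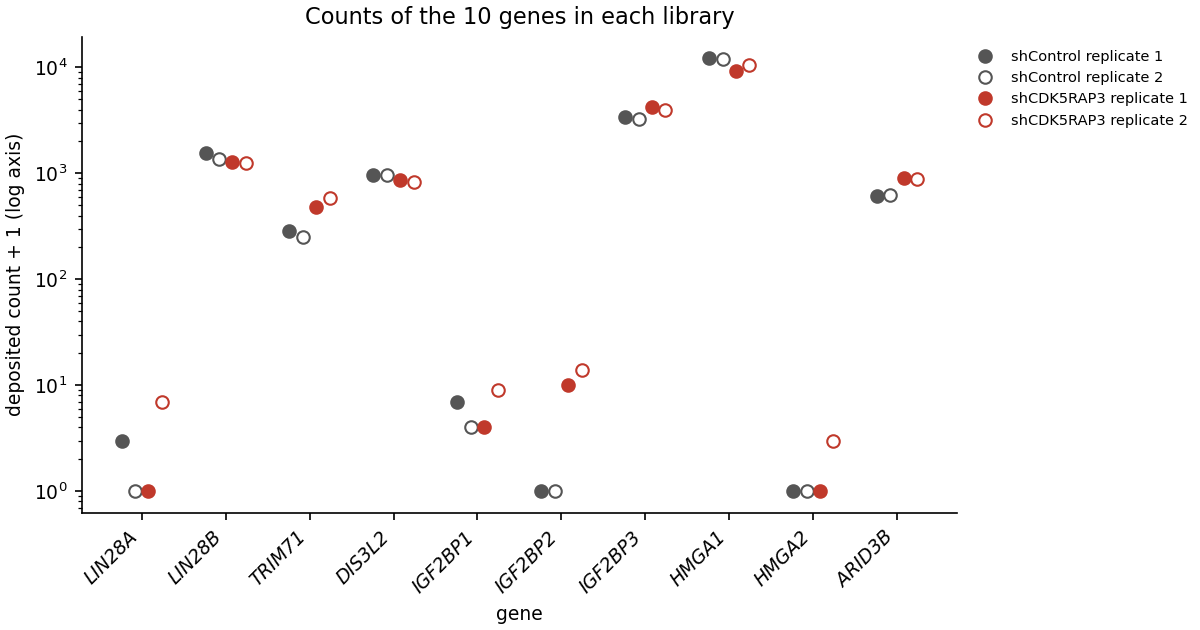
Deposited count plus 1 (log axis) of each of the 10 genes in the 2 shControl libraries (grey) and the 2 shCDK5RAP3 libraries (red), with replicate 1 filled and replicate 2 open. HMGA1, IGF2BP3 and LIN28B lie at 1251 counts or more in every library, and LIN28A, IGF2BP1, IGF2BP2 and HMGA2 at 13 or fewer.

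Which of these transcripts differed once CDK5RAP3 mRNA was lowered was asked with edgeR over all 18775 tested genes, of which 41.5% passed an adjusted p of 0.05, 19.7% upward and 21.8% downward. Of the 6 tested oncofetal genes 3 rose (TRIM71, ARID3B and IGF2BP3), 1 fell (HMGA1) and 2 did not pass (LIN28B and DIS3L2). Against a background in which so many genes passed, 4 calls among 6 genes describe these genes and are not a result about them as a group. The 6 genes did not move 1 way. The 3 that rose each hold a let-7 match, and so do LIN28B and HMGA1, whose values were lower.

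**Figure D2:**
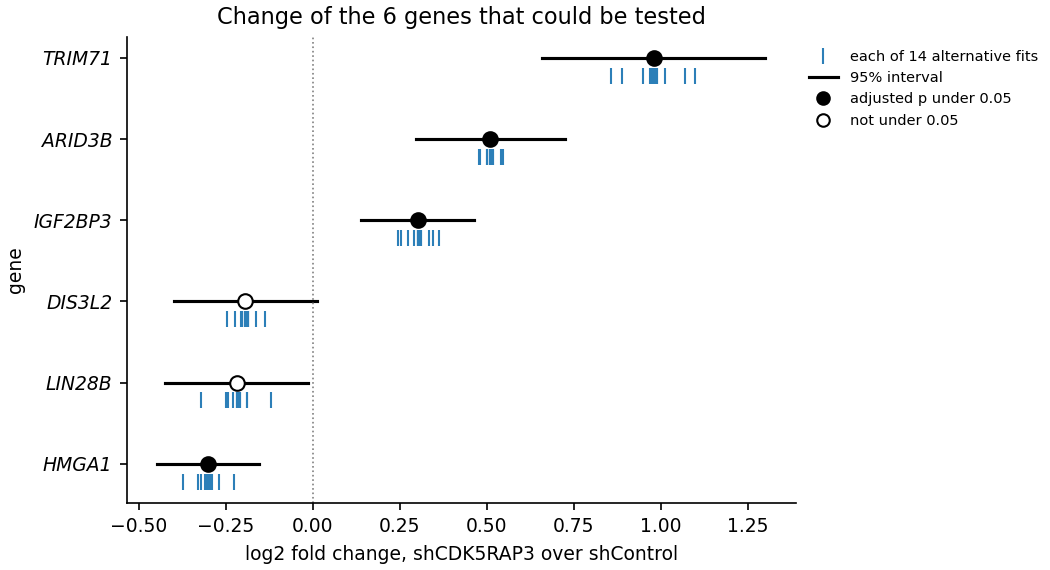
Log2 fold change, shCDK5RAP3 over shControl, of the 6 tested genes with its 95% interval (black), filled where the edgeR adjusted p was under 0.05, and the same value in 14 alternative fits (blue ticks). TRIM71, ARID3B and IGF2BP3 lie above 0 and HMGA1, LIN28B and DIS3L2 below it in every fit shown.

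LIN28B is the LIN28 paralog of neuroblastoma, where it blocks let-7 maturation (ENSG00000187772, chromosome 6, 104936616 to 105083332). With the control hairpin it was counted 1560 and 1364 times, and with the CDK5RAP3 hairpin 1266 and 1251 times. The groups did not overlap, but the shControl libraries differed from each other by about as much as the groups. In CPM this was 50.4 ± 4.95 against 43.3 ± 1.45 (SD, n = 2 each), 85.9% of control. The log2 change of -0.22 ± 0.09 (SE) did not pass (edgeR adjusted p = 0.0814; unadjusted p = 0.0382). Without shControl replicate 1 it was -0.12 (edgeR adjusted p = 0.398), and without shControl replicate 2 it was -0.32 and passed (0.0169). The antisense gene LIN28B-AS1 had 5 to 13 counts in a library. LIN28A, its paralog in pluripotent stem cells, had 2 and 0 control counts against 0 and 6, with the groups overlapping.

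TRIM71 showed the largest change of the 6 tested genes. It encodes a ubiquitin ligase and mRNA repressor of stem cells (ENSG00000206557, chromosome 3, 32818018 to 32897826). Control libraries held 284 and 252 counts of it, against 479 and 582 in the shCDK5RAP3 libraries. The groups did not overlap, and the gap between them was larger than the gap within either. The mean level rose 1.97-fold (9.24 ± 0.812 against 18.2 ± 2.05 CPM, SD, n = 2 each), a log2 change of 0.98 ± 0.14 (SE) with an edgeR adjusted p of 0.000629. Of all tested genes 14.1% changed by at least this much in either direction. TRIM71 is also the tested gene with the most let-7 matches: no other tested gene held as many as its 6, among them the one printed above.

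DIS3L2 is the exonuclease that removes uridylated let-7 precursors (ENSG00000144535, chromosome 2, 231961245 to 232344350). Its 2 control libraries gave 974 and 965 counts, and the CDK5RAP3 hairpin gave 870 and 828. The groups did not overlap, yet the difference was small. Its CPM was 33.4 ± 0.335 against 29.2 ± 1.76 (SD, n = 2 each), or 87.4% of control, and the log2 change of -0.19 (95% interval -0.40 to 0.01) did not pass (edgeR adjusted p = 0.121). That interval holds 0 and also falls of up to 0.40, so the data do not show the level to be equal.

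The 3 human DIS3 exonucleases differed in direction. DIS3, the nuclear exosome's catalytic subunit, rose from 42.2 to 67.6 CPM (log2 change 0.68 ± 0.07 SE, edgeR adjusted p = 0.000109). DIS3L, the catalytic subunit of the cytoplasmic exosome, fell by 0.50 on the log2 scale (edgeR adjusted p = 0.00369), a call lost without shCDK5RAP3 replicate 1 (0.0561) and without the low-count filter (0.0553). By level per length DIS3L stood above DIS3 in the shControl libraries (7.19 and 7.23 against 3.92 and 3.87 RPKM) and below it in the shCDK5RAP3 libraries (4.71 and 5.50 against 6.24 and 6.23). DIS3L2 was the lowest of the 3 in every library, at 17.4% to 21.1% of their sum.

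The IGF2BP proteins bind mRNAs such as those of IGF2 and MYC and keep them from decay, and they read the N6-methyladenosine (m6A) mark. IGF2BP3 (ENSG00000136231, chromosome 7, 23310209 to 23470467, minus strand) was counted 3438 and 3237 times under the control hairpin, and 4235 and 4006 times under the CDK5RAP3 hairpin. The higher pair was the shCDK5RAP3 one, with no overlap. Its level rose 1.23-fold (115 ± 5.30 against 142 ± 9.14 CPM, SD, n = 2 each), or by 0.30 ± 0.07 (SE) on the log2 scale with an edgeR adjusted p of 0.00859, a size that 57.6% of tested genes reached. With shCDK5RAP3 replicate 1 left out the log2 change of 0.24 did not pass (edgeR adjusted p = 0.112), nor did the 0.36 without shCDK5RAP3 replicate 2 (0.0557) or the value without the low-count filter (0.0757). MALSU1, on the other strand, overlaps its span and had 714 to 904 counts, and whether counting used the strand is not known here.

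IGF2BP2, a paralog that many adult tissues keep, had 0 counts in both shControl libraries, and 9 and 13 under the CDK5RAP3 hairpin. Its level there, 0.377 ± 0.0878 CPM (SD, n = 2), stood 3.65-fold above the floor of 3 counts in the shControl libraries. That ratio takes the counts of 9 and 13 as exact, so it is not a firm lower bound. It was below the filter, and in the fit without a filter, where 13.2% of 33921 genes passed, it did not (edgeR adjusted p = 0.0584). With either shControl replicate left out it met the filter, but only through its shCDK5RAP3 counts and against 1 control library at 0, so its adjusted p there is no support for a change. Its annotated 3′ UTR also holds the word AACACCT. Of the tested oncofetal genes DIS3L2 holds this word too, in a 3′ UTR other than its longest. Whether the word bears on the level of either gene was not tested. IGF2BP1, the paralog best known from neuroblastoma with gain of chromosome 17, had 6 and 3 counts against 3 and 8. Its groups overlapped, and no difference was detectable at this depth.

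HMGA1 and HMGA2 are small chromatin proteins that bind AT-rich DNA in the minor groove. HMGA1 (ENSG00000137309, chromosome 6, 34236873 to 34246231) was the most abundant of the 10 by level per length. Control counts were 12171 and 11967, against 9197 and 10456 with the CDK5RAP3 hairpin. The shControl libraries were close to each other, and both shCDK5RAP3 libraries lay below them with a wider spread. It fell from 416 ± 6.42 to 338 ± 22.1 CPM (SD, n = 2 each), 81.2% of control, with a log2 change of -0.30 ± 0.06 (SE; edgeR adjusted p = 0.00521). It did not pass once shCDK5RAP3 replicate 1 was left out (-0.23, edgeR adjusted p = 0.107) or once the low-count filter was dropped (0.0612). HMGA1 has processed pseudogenes with rows of their own. The most counted of them, HMGA1P8, had 42, 34, 17 and 28 counts in the same library order, a small amount beside the gene.

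HMGA2, the paralog most closely tied to let-7, had 0 counts in 3 libraries and 2 in shCDK5RAP3 replicate 2. At this depth it was not detected above the floor in either group. Its longest annotated 3′ UTR holds both AACACCT and ACACCTA, which overlap by 6 bases there.

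ARID3B binds AT-rich DNA through its ARID domain and has been studied in neuroblastoma beside MYCN (ENSG00000179361, chromosome 15, 74541177 to 74598131). It was counted 617 and 625 times with the control hairpin and 895 and 877 times with the CDK5RAP3 hairpin. Replicates agreed closely within both groups and the groups did not overlap. The rise was 1.42-fold, with 21.4 ± 0.121 against 30.5 ± 1.20 CPM (SD, n = 2 each) and a log2 change of 0.51 (95% interval 0.30 to 0.72; edgeR adjusted p = 0.00246).

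Its paralog ARID3A rose further. ARID3A, which can form complexes with ARID3B, went from 361 and 339 control counts to 1130 and 1127 (log2 change 1.69 ± 0.10 SE, edgeR adjusted p = 5.46e-06). Per length, ARID3A stood at 0.504 and 0.467 of ARID3B under the control hairpin and at 1.09 and 1.11 of it under the CDK5RAP3 hairpin, so the order of the paralogs was turned over in both libraries. The difference between the changes of these paralogs was not tested. ARID3C had 6 and 4 counts against 0 and 0.

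**Figure D3:**
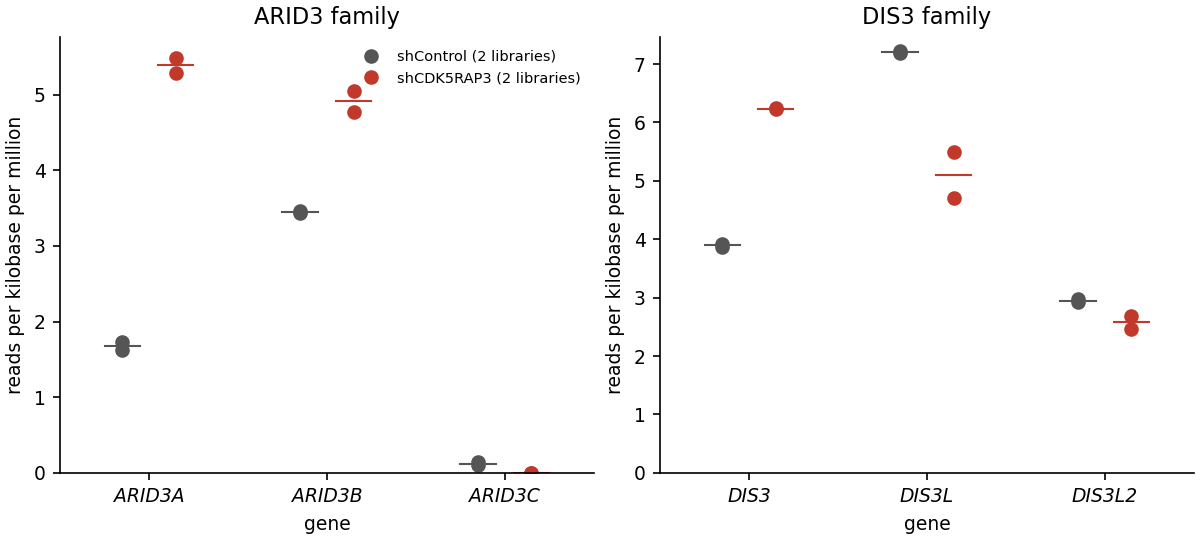
Level per length (RPKM) of the ARID3 genes (left) and the DIS3 genes (right) in each shControl library (grey) and shCDK5RAP3 library (red), with group means as lines. ARID3A passes from below to above ARID3B and DIS3 from below to above DIS3L, while DIS3L2 stays lowest of its family.

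Mature let-7 was not measured by these libraries, and the 10 rows for single hairpins of the family had 0 to 7 counts each. The transcripts that span the 12 let-7 and miR-98 hairpins on the same strand were counted, in 8 rows. MIRLET7BHG, which spans the hairpins of let-7a-3 and let-7b on chromosome 22, went from 196 and 204 control counts to 429 and 518. It rose by 1.24 ± 0.15 (SE) on the log2 scale (edgeR adjusted p = 0.000209), with groups well apart. MIR99AHG, which spans let-7c on chromosome 21, had 212 and 170 counts against 72 and 67, and fell by 1.46 (edgeR adjusted p = 0.00068). WDR82, around let-7g, rose by 0.49 and MIR100HG, around let-7a-2, by 0.28 (edgeR adjusted p = 0.000465 and 0.0389). MIR100HG did not pass with DESeq2 (adjusted p = 0.0759), by library size (edgeR adjusted p = 0.0629), without the low-count filter (0.0887), or without shControl replicate 1 (0.147), shCDK5RAP3 replicate 1 (0.177) or shCDK5RAP3 replicate 2 (0.138). MIRLET7IHG (log2 change 0.31), SPACA6 (0.52) and HUWE1 (-0.01) did not pass (edgeR adjusted p = 0.195, 0.106 and 0.935), and the row over the let-7a-1, let-7f-1 and let-7d hairpins had at most 3 counts. The hosts therefore went in both directions, and the level of a host gives no level of mature let-7.

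Genes for the processing and uridylation of the let-7 precursor, enzymes and their cofactors, were mixed as well. There were 4 rises and 1 fall among 10 tested (median log2 change 0.10; over all tested genes the median was -0.003 and 41.5% passed), and the 4 rises became 2 without shCDK5RAP3 replicate 1 or without the low-count filter. DICER1, which cuts the precursor and is itself a let-7 target, was the 1 that fell, from 7251 and 6504 counts to 3261 and 3134 (log2 change -1.11, edgeR adjusted p = 1.21e-05). DGCR8, the partner of the nuclear nuclease DROSHA, rose by 0.67 and KHSRP, which promotes let-7 processing, by 0.42. TUT1, a terminal uridylyltransferase, rose by 0.76, but DESeq2 (adjusted p = 0.0567), the robust edgeR fit (0.0879) and the fits without shCDK5RAP3 replicate 1 (0.112) or without the low-count filter (0.163) did not call it. TUT4 and TUT7, which tail the precursor with LIN28A, were chosen after their values were seen. Their log2 changes were 0.14 and -0.11 (edgeR adjusted p = 0.17 and 0.558).

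Other textbook targets of let-7 changed both ways. There were 11 rises and 8 falls among 26 tested (median 0.25), or 73.1% called against 41.5% of all tested genes. The rises became 7 without either shCDK5RAP3 replicate, and the falls 5 without shCDK5RAP3 replicate 2. MYC (2.32, at 6 and 7 counts against 36 and 30; edgeR adjusted p = 0.0517 without shCDK5RAP3 replicate 1), CCND1 (2.17) and ARID3A (1.69) had the largest rises, and DICER1 the largest fall. The count of let-7 matches was then set beside the calls over all tested genes with an annotated 3′ UTR. Of these 13564 genes 3100 rose and 3600 fell, a larger share than the 41.5% of all tested genes. Of 11929 genes with 0 matches 22.8% rose and 26.4% fell, of 1420 with 1 match 21.9% rose and 28.2% fell, and of 182 with 2 matches 28.6% rose and 28.0% fell.

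Few genes held more. Of 22 genes with 3 matches 7 rose and 3 fell, and of 11 with 4 or more 7 rose and 1 fell, with a median log2 change of 0.27. The genes named from these 11 were chosen after the bins were seen. Among them TRIM71, ZBTB37 (0.58), HEMK1 (0.52), HIC2 (0.48), LIMD2 (0.27) and SMC1A (0.22) rose and IQSEC2 fell by 1.17. LIN28B, NR6A1 (-0.41) and IGDCC3 (-0.69) did not pass. Without shCDK5RAP3 replicate 2 the rises of HEMK1, HIC2, LIMD2 and SMC1A were lost, so that 3 of the 11 rose; without the low-count filter 5 rose and 1 fell. With TRIM71 and LIN28B left out, 6 of the 9 others rose and 1 fell. The words AACACCT and ACACCTA were looked at because an earlier pass over these libraries tied them to lower counts, so their values are no independent support: of 2295 genes that hold either, 323 rose and 959 fell. ZBTB37, SMC1A and IQSEC2 are among them. Without the genes that hold either word, 24.5% rose and 23.4% fell at 0 matches, 24.3% each at 1 match, and 37.6% rose and 22.9% fell at 2 matches (109 genes, median log2 change 0.12). Of the 11 such genes with 3 matches 2 rose and 2 fell, and of the 7 with 4 or more 4 rose and 0 fell. No test was run on these bins, and the last holds too few genes for its share to be read as a trend.

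**Figure D4:**
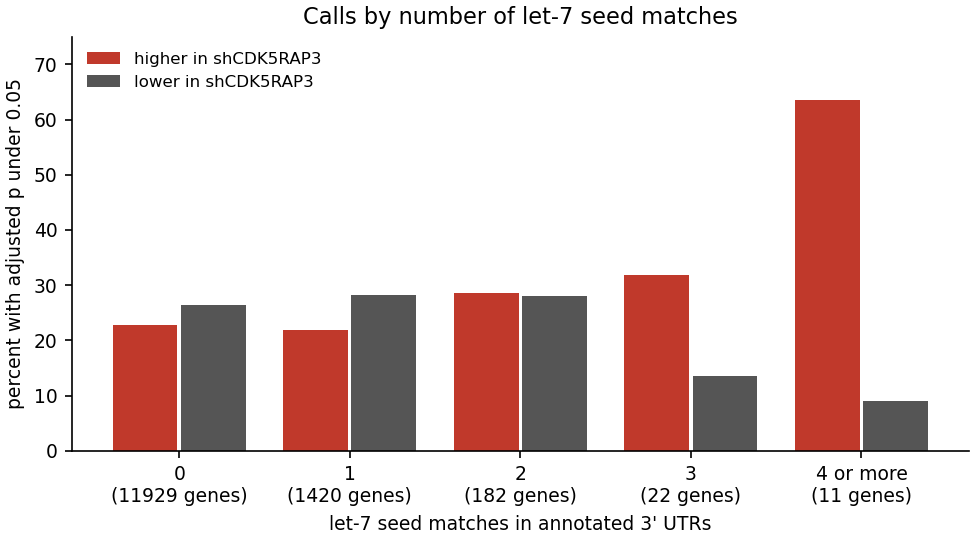
Share of tested genes, in percent, that were higher (red) or lower (grey) in shCDK5RAP3 at an edgeR adjusted p under 0.05, by the number of let-7 seed matches in their annotated 3′ UTRs. Shares stay between 21.9% and 28.6% up to 2 matches, and the bins with 3 and with 4 or more matches hold 22 and 11 genes.

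Around the IGF2BP genes, the proteins that hold IGF2BP1-bound mRNAs stable changed little. Of 7 tested 1 rose, the RNA-stabilising protein ELAVL1 (log2 change 0.52 ± 0.06 SE, edgeR adjusted p = 0.000181), and 6 did not pass (median 0.04). YBX1 (0.13) and MATR3 (-0.11) were among those 6. YBX1 passed with upper-quartile factors (edgeR adjusted p = 0.0431) and without shControl replicate 2 (0.0401). Of 8 transcripts known to be bound by IGF2BP proteins 5 fell and 3 rose, with a median of -0.55; of all tested genes 21.8% fell and 19.7% rose. H19, an imprinted fetal RNA, fell from 923 to 444 CPM (log2 change -1.05, edgeR adjusted p = 4.70e-06). IGF2, the growth factor that gave the family its name, fell from 51.6 to 34.8 CPM (-0.57, edgeR adjusted p = 0.000585; chosen after its value was seen). CD44, a hyaluronan receptor, fell by 1.12 and the ubiquitin-ligase subunit BTRC by 0.71, whereas MYC rose.

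Among m6A writers, erasers and other readers 7 of 17 rose and 0 fell, with a median of 0.17. Of all tested genes 19.7% rose and 21.8% fell. Both directions together, 41.2% of this list were called against 41.5% of all tested genes. Without shCDK5RAP3 replicate 2 the 7 rises became 4. RBM15 (0.63) and VIRMA (0.44), parts of the writer complex, the reader YTHDF1 (0.59) and the eraser ALKBH5 (0.55) led them. Of 8 other high-mobility-group proteins 1 rose, 2 fell and 5 did not pass (median 0.08). The nucleosome-binding HMGN3 and HMGN2 fell by 0.71 and 0.51, as HMGA1 did. HMGN1 rose by 0.18, a call that was lost by library size (edgeR adjusted p = 0.0613), without the low-count filter (0.1), and without shControl replicate 1 (0.131), shCDK5RAP3 replicate 1 (0.152) or shCDK5RAP3 replicate 2 (0.217). HMGB2 (0.14) did not pass, though it did without shControl replicate 2 (0.0304).

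Of 12 exosome genes and DIS3 paralogs 7 rose and 2 fell (median 0.28), against 19.7% and 21.8% of all tested genes. The rises became 4 without either shCDK5RAP3 replicate, and the falls 1 without shCDK5RAP3 replicate 1 or the low-count filter. EXOSC4 (1.13) and EXOSC2 (0.68), parts of the exosome barrel and cap, rose with DIS3, and EXOSC1 fell by 0.92 (edgeR adjusted p = 0.000214, 0.000277 and 0.000168). Of the 4 tested paralogs of ARID3B and TRIM71 2 rose and 2 did not pass. Besides ARID3A, the NHL-domain ligase TRIM32 rose by 0.43, a call lost without either shCDK5RAP3 replicate (edgeR adjusted p = 0.0718 and 0.0668). TRIM2 (0.23) passed without shControl replicate 1 (0.00213), and TRIM3 (-0.02) did not pass.

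Of 17 other fetal and stem-cell genes 11 were tested, and 6 of them fell, 1 rose and 4 did not pass (median -0.57), where 21.8% of all tested genes fell and 19.7% rose. The 1 rise was lost without shControl replicate 2, without either shCDK5RAP3 replicate and without the low-count filter. The surface proteoglycan GPC3 fell from 28.5 to 10.4 CPM (log2 change -1.46, edgeR adjusted p = 1.72e-05) and the DNA methyltransferase DNMT3B by 1.27. H19 and IGF2 fell as given above. Both are also counted among the IGF2BP-bound transcripts, so these lists are not separate observations. PLAGL1 (-0.70) did not pass. AFP, DPPA4, ZFP42 and TDGF1 had 0 counts in all 4 libraries.

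**Figure D5:**
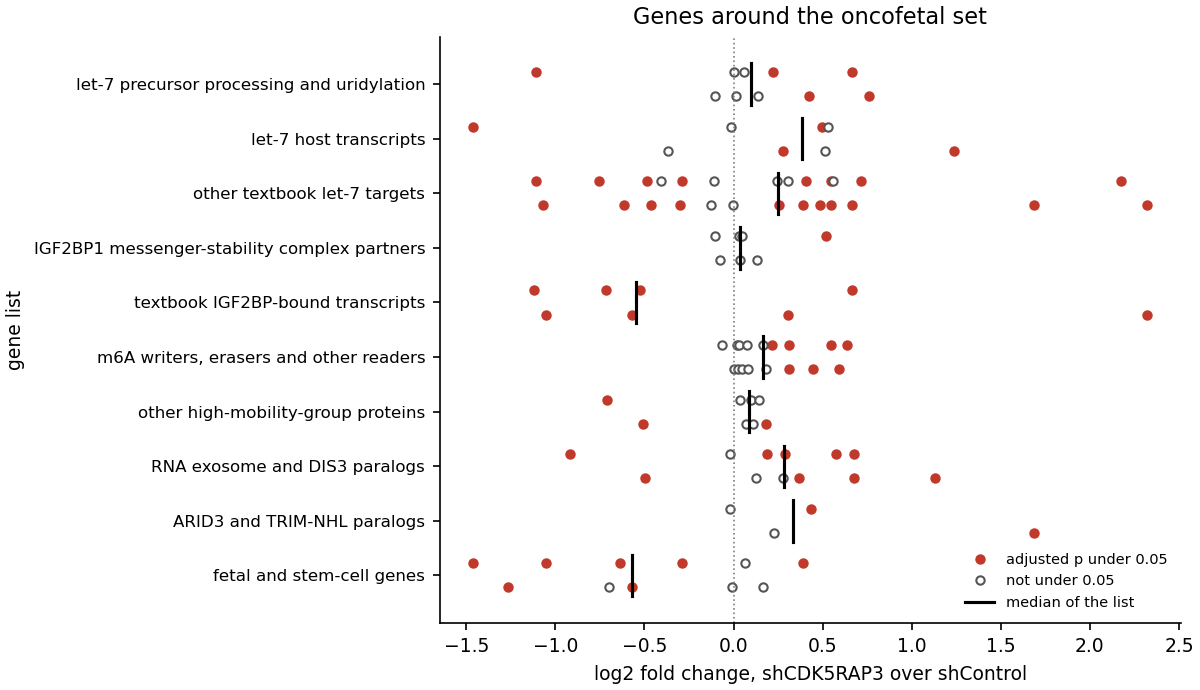
Log2 fold change, shCDK5RAP3 over shControl, of each tested gene in 10 gene lists, filled red where the edgeR adjusted p was under 0.05 and open where not, with the median of each list as a black line. IGF2BP-bound transcripts (median -0.55) and fetal and stem-cell genes (-0.57) lie furthest below 0, and the other medians lie between 0.04 and 0.39. The highest, 0.39, is that of the let-7 host list as first drawn up. That list holds LINC01465 and MIRLET7A1HG, which span no let-7 hairpin, and lacks MIRLET7IHG. H19 and IGF2 are in both of the lists furthest below 0.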

How the data were processed

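RNA from 4 SK-N-BE(2) libraries was sequenced, 2 per group. The authors deposited unscaled counts by Ensembl identifier, in 1 table. HISAT2 2.2.0, StringTie and hg38 are named, with no roles, per the submitters' processing notes. No source used here gives the annotation, the strand setting or the treatment of reads with several positions, which matters for overlapping genes and for genes with pseudogenes such as HMGA1.

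Groups came from sample titles and columns from sample descriptions. Symbols came from a gene-name table and GENCODE 29 (GRCh38), which matched 56591 of 64252 rows; all rows stayed in library sizes. edgeR 4.0.16 (R 4.3.3) was run with TMM factors, its default filter (18775 genes kept), the quasi-likelihood test and Benjamini-Hochberg adjustment over all tested genes at 0.05. SE is the absolute log2 change over the root of F. CPM uses TMM-scaled library sizes, and RPKM also the union exon length. Floors of 3 counts cover counting error only. UTR words were matched over all protein-coding transcripts, where the plan had named the longest UTR.

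The members and lists were chosen with earlier results of these data known. Named genes are the members, CDK5RAP3, paralogs compared with a member, and up to 4 genes of each list with the largest change; other genes named were chosen after their values were seen, and some genes are not reported here. MIRLET7DHG matched no row, and LINC01465 proved to span no let-7 hairpin, so hosts are given by hairpin position. Alternatives were other scaling factors, filters and thresholds, DESeq2 1.42.0, limma-trend 3.58.1, a robust fit, a replicate block, rows summed by symbol, and each library left out. In a simulation of this comparison with 18383 genes, edgeR called 46 of 50 genes at a log2 change of -1, 43 of 50 at 1, 15 of 50 at 0.5, 12 of 50 at -0.5 and 2 of 18183 unchanged genes.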

Additional observations from a re-analysis of the deposited data

How the results depend on the processing

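The directions of the 6 tested oncofetal genes were the same in all 14 alternative fits, and TRIM71 (log2 change 0.86 to 1.10), ARID3B (0.48 to 0.55) and CDK5RAP3 (-0.77 to -0.60) passed in each of them, while DIS3L2 passed in none (-0.25 to -0.14). The 3 rises became 2 without the low-count filter and without either shCDK5RAP3 replicate, and 4 without either shControl replicate, where IGF2BP2 entered only through its shCDK5RAP3 counts against 1 library at 0 and is no support for a further rise. The 1 fall became 0 without the low-count filter and 2 with the replicate block, where LIN28B passed as well (edgeR adjusted p = 0.0218), and it ranged from 0 to 2 when single libraries were left out. With the block YBX1 (0.13), HMGB2 (0.14), TRIM2 (0.23) and IGDCC3 (-0.71) passed too (edgeR adjusted p = 0.0113, 0.0118, 0.00247 and 0.0252). Over all genes 1966 rose and 2522 fell without the low-count filter, 2421 rose at a threshold of 0.01, and leaving out 1 library gave 1556 to 3516 rises and 2196 to 3813 falls. A lone library left in a group is assumed there to vary like the other group. The fewer calls without a filter come with 33921 genes tested in place of 18775. Of the distinct tested genes of the 10 pathway lists 55.8% were called in the main fit, against 41.5% of all tested genes. Among all tested genes 19.7% rose and 21.8% fell. The lists were chosen with earlier results of these data known, and the difference in shares was not tested. Of the 104 tested genes of the 10 pathway lists, 36 rose and 22 fell, and 22 to 37 rose when 1 library was left out. TRIM3, at -0.02, turned to 0.01 with upper-quartile factors and ranged from -0.088 to 0.048 as single libraries were left out, and passed in no fit. Leaving out single libraries also turned the sign of TUT7 (-0.295 to 0.103), HUWE1 (-0.185 to 0.174, and 0.019 with upper-quartile factors) and NR6A1 (-1.031 to 0.706), none of which passed. For calls that changed, the cause was not tested. Equal replicate numbers do not pair the libraries by any label, and the deviations of same-numbered libraries correlated at 0.15 over 13893 genes with only 2 pairs. Depth limits LIN28A, IGF2BP1, IGF2BP2 and HMGA2, where changes of a few counts could not be tested.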
